A study of Mus musculus with 2 samples.

Results

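The CXC chemokines of the skin wound were examined as 10 genes chosen by symbol, among 24346 gene symbols measured in each library. They were the neutrophil-attracting ligands Cxcl1, Cxcl2, Cxcl3 and Cxcl5, the interferon-induced ligands Cxcl9 and Cxcl10, the homeostatic ligands Cxcl12, Cxcl13 and Cxcl14, and the membrane-bound ligand Cxcl16. All 10 were found in both libraries. The wounds were made in the dorsal skin of 1-day-old littermate pups of strain C57BL/6J, which were either WT or PU.1-/- (labelled PU.1_KO), and were harvested 24 h later. The PU.1-/- pups carried a germline loss of PU.1, the product of Spi1, which directs myeloid and lymphoid development. Such mice are described as lacking neutrophils, macrophages, mast cells and T cells. The methods describe a full-thickness incision, whereas the accompanying design text calls the wound excisional. The number of pups behind each library was not stated.

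CXC chemokines are small secreted proteins that guide leukocytes along concentration gradients. The ligands with a glutamate-leucine-arginine motif before their first cysteine, to which Cxcl1, Cxcl2, Cxcl3 and Cxcl5 belong, bind Cxcr2 and draw neutrophils into wounds. Cxcl9 and Cxcl10 bind Cxcr3 on activated T cells and NK cells, and are transcribed under interferon signals. Cxcl12, Cxcl13 and Cxcl14 are made in resting tissue, where Cxcl12 binds Cxcr4 and Ackr3, Cxcl13 binds Cxcr5, and Cxcl14 is abundant in epidermis. Cxcl16 is anchored in the membrane, is released by the proteases Adam10 and Adam17, and binds Cxcr6.

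mRNA was sequenced as 1 library per genotype, and the deposited values were FPKM, in which the fragments of a gene are divided by its transcript length and by the size of the library. Since length is divided out, levels of different genes can be set beside each other on this scale. The step size of low values gave a depth of about 1.37e+07 fragments for WT and 1.57e+07 for PU.1-/-. With 1 library per genotype there was no spread between animals and no test. A gene was called lower or higher at a PU.1-/- over WT ratio of at least 2-fold, with values below 0.1 FPKM raised to 0.1. The 95% intervals are exact binomial intervals on estimated reads and cover counting error only. Spi1 had 35.4 FPKM (WT) against 1.45 FPKM (PU.1-/-). The libraries also differed in genes of the sex chromosomes, with Xist at 0 and 9.48 FPKM and Ddx3y at 20.97 and 0 FPKM in WT and PU.1-/-, so that genotype and sex cannot be told apart.

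Of the 10 chemokines, 3 were at least 2-fold lower in the PU.1-/- wound, against 4.34% of all genes, and 1 was at least 2-fold higher, against 2.32% of all genes. The lower ones were Cxcl3, Cxcl2 and Cxcl9, and the higher one was Cxcl10. The other 6 had log2 ratios (PU.1-/- over WT) between -0.46 and 0.90. The median log2 ratio over the 10 genes was -0.04, beside 0 over all genes. Of genes whose higher value reached 1 FPKM, 4.45% were lower and 1.71% were higher, and all of the chemokines but Cxcl9 reached it. Among genes that reached 10 FPKM, 2.88% were lower and 0.882% were higher, and the CXC chemokines at that level were Cxcl1, Cxcl2, Cxcl3, Cxcl5, Cxcl10, Cxcl12 and Cxcl14.

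**Figure D1:**
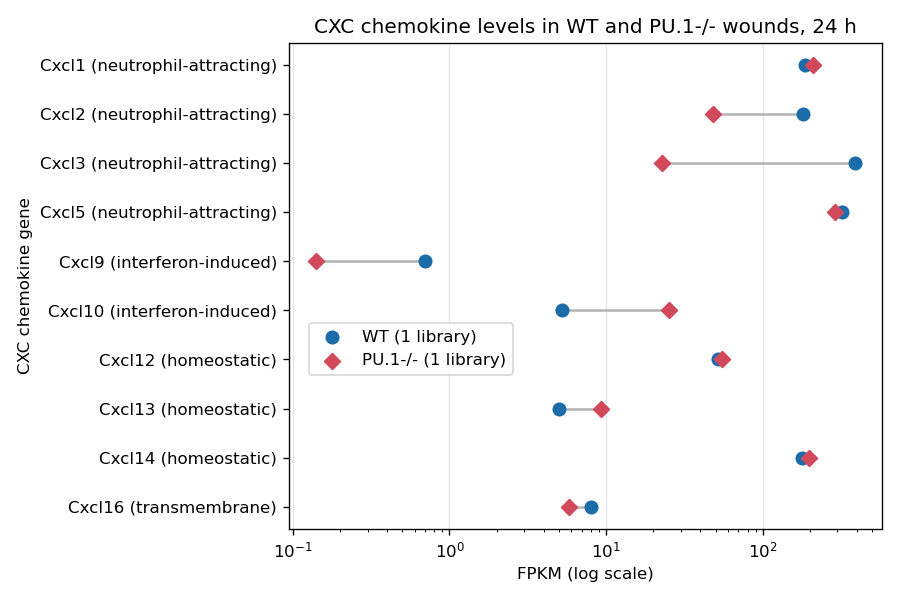
FPKM of each CXC chemokine (rows) on a log axis, with a circle for the WT library and a diamond for the PU.1-/- library. Cxcl3, Cxcl2 and Cxcl9 lay to the left in PU.1-/- (22.7, 48.4 and 0.140 FPKM), Cxcl10 lay to the right (25.1 FPKM), and the markers of Cxcl1, Cxcl5, Cxcl12 and Cxcl14 nearly coincided.

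The neutrophil-attracting ligands divided into 2 pairs. Cxcl3 had 388.5 FPKM in the WT wound, where it was the most abundant CXC chemokine of the 10 and ranked 243 among all genes. In the PU.1-/- wound it had 22.7 FPKM and ranked 3868. The WT over PU.1-/- ratio was 17.1 (interval 15.2 to 19.4), from about 4337 and 291 reads. Cxcl2, an early neutrophil attractant made by several cell types at sites of injury, had 180 FPKM (WT) against 48.4 FPKM (PU.1-/-). Its ratio was 3.72 (interval 3.41 to 4.05), from about 2235 and 692 reads. The fall of Cxcl3 was thus the larger of the pair, with intervals that did not overlap. In bulk tissue, fewer cells of a type and less RNA per cell cannot be told apart.

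Cxcl1 and Cxcl5 remained abundant in the PU.1-/- wound. Cxcl1, a ligand of Cxcr2 made by keratinocytes, fibroblasts and endothelium as well as by leukocytes, had 187 FPKM (WT) against 208 FPKM (PU.1-/-). Its PU.1-/- over WT ratio was 1.12 (interval 1.05 to 1.19), and its rank among all genes went from 493 to 409. Cxcl5, a Cxcr2 ligand made mainly by epithelia, had 322 FPKM (WT) against 291 FPKM (PU.1-/-), with ranks of 288 and 290. Its ratio was 0.905 (interval 0.874 to 0.938). Both differences were far below the 2-fold threshold, and no spread between animals was available to set them against.

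The makeup of the neutrophil-attracting transcripts differed between the wounds, a comparison within each library that does not depend on the scaling between libraries. Cxcl3 made up 36.1% of the summed FPKM of the 4 genes in WT and 3.97% in PU.1-/-. Cxcl2 went from 16.7% to 8.47%. Cxcl1 made up 17.3% in WT and 36.5% in PU.1-/-, and Cxcl5 made up 29.9% and 51.1%. Relative to Cxcl1, Cxcl3 was 2.08 times as abundant in the WT wound and 0.109 times as abundant in the PU.1-/- wound. The sum of the 4 genes was 1077 FPKM (WT) against 571 FPKM (PU.1-/-), which was 1.89 times lower.

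**Figure D2:**
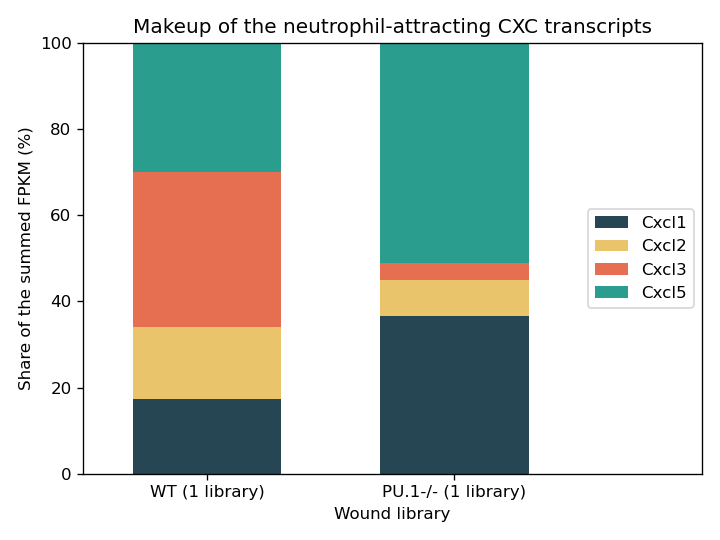
Share of the summed FPKM (y axis, percent) of Cxcl1, Cxcl2, Cxcl3 and Cxcl5 in the WT and PU.1-/- libraries (bars). Cxcl3 shrank from 36.1% to 3.97%, while Cxcl1 and Cxcl5 together took most of the PU.1-/- bar (36.5% and 51.1%).

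Cxcl1, Cxcl2 and Cxcl3 lie on the same chromosome and have related sequence, so the separation of their reads was checked on their GENCODE transcripts. Of 942 windows of 75 bases, the read length, in the Cxcl3 transcript, 81 (8.60%) matched Cxcl2 with at most 2 mismatches, and 36 of these windows matched exactly. The same 81 windows made up 7.83% of the 1035 windows of Cxcl2. No window of Cxcl1 came within 2 mismatches of another CXC gene, the nearest being Cxcl3 with 9 mismatches. Reads from the shared stretches of Cxcl2 and Cxcl3 could be assigned to either gene, which leaves the values of both uncertain. The counting intervals do not cover this uncertainty, and its size was not estimated. In Cxcl5, 18 of 1501 windows recurred exactly in Ilf2 or 4930470B04Rik transcripts.

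The 250 bases before the start of each gene are shown for Cxcl1, Cxcl2, Cxcl3 and Cxcl10, because the first 3 share the letters of a kappa B element while their ratios differed, and because Cxcl10 went the opposite way to Cxcl2 and Cxcl3. Sequences are those of RefSeq on GRCm38.p6, 5′ to 3′ along the gene, and capitals mark matches on the printed strand to the searched letters. The strict kappa B letters were GGG, any 2 bases and TTTCC, the loose ones were GGG, any 3 bases and TTCC, and those of interferon response elements were GAAA, any 2 bases and GAAA. The windows lie at chr5:90890995-90891244 (plus strand) for Cxcl1, chr5:90903649-90903898 (plus strand) for Cxcl2, chr5:90785851-90786100 (plus strand) for Cxcl3 and chr5:92348890-92349139 (minus strand) for Cxcl10.
Cxcl1: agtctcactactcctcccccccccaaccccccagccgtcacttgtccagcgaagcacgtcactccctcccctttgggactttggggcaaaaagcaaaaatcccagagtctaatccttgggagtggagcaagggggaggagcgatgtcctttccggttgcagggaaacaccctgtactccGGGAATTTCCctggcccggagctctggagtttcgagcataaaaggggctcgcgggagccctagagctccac
Cxcl2: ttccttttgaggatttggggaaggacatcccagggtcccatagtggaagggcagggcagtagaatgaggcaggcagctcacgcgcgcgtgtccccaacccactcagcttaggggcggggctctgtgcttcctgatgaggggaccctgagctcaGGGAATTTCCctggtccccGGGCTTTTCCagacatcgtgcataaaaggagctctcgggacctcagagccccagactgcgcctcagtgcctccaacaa
Cxcl3: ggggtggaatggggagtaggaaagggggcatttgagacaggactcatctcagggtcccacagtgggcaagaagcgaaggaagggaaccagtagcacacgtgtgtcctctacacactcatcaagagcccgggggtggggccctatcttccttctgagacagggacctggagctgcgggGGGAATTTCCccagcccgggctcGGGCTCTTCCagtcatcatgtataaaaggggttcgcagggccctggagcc
Cxcl10: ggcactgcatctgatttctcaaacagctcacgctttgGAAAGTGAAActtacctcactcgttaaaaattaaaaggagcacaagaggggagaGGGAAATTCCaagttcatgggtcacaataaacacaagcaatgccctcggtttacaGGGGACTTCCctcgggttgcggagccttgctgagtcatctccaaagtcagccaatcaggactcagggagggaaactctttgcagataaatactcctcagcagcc

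The letters GGGAATTTCC began 71 bases before the start of Cxcl1, 97 bases before the start of Cxcl2 and 73 bases before the start of Cxcl3. These decamers were identical in the 3 genes. Cxcl1 was 1.12 times higher and Cxcl3 was 17.1 times lower in the PU.1-/- wound, and the part of the decamer in these ratios was not tested. Cxcl2 held another match, GGGCTTTTCC, 78 bases before its start, and Cxcl1 held another on the opposite strand, 89 bases before its start. Cxcl3 held a loose match, GGGCTCTTCC, 50 bases before its start. Cxcl10 held loose matches at 159 and 104 bases, and GAAAGTGAAA at 213 bases before its start. Of all 32851 RefSeq windows of this length, 1.41% held the strict kappa B letters on either strand, 4.65% held the loose ones and 2.98% held the interferon letters. Every strict match is also a loose match, and GGGAATTTCC matches the loose letters on both strands, shifted by 1 base. Among the 8 chemokines with a promoter in the RefSeq set (all but Cxcl5 and Cxcl16), the only other match was GAAACAGAAA in Cxcl14. A match describes the letters in the window and not a bound site.

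The 3′ untranslated regions of the neutrophil-attracting genes were rich in the pentamer AUUUA, the core of the elements through which chemokine mRNAs are degraded. Cxcl2 held 11 copies in 737 bases and Cxcl1 held 7 in 595 bases, so that their densities of 14.9 and 11.8 per kilobase lay at percentiles 99.6 and 99.2 of 18854 genes. Cxcl3 held 5 in 648 bases and Cxcl5 held 5 in 1114 bases, at percentiles 97.4 and 90.5. The median gene held 1.15 per kilobase. The ligands from Cxcl9 to Cxcl16 held between 0 copies (Cxcl14) and 4 copies (Cxcl12). Cxcl1 and Cxcl2 had the densest pentamers and stood on different sides of the 2-fold threshold. The part of mRNA decay in the ratios was not tested.

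The interferon-induced ligands went in opposite directions. Cxcl10 had 5.20 FPKM (WT) against 25.1 FPKM (PU.1-/-), a PU.1-/- over WT ratio of 4.83 (interval 3.69 to 6.41) from about 64 and 353 reads. Its rank among all genes went from 9305 to 3529. Cxcl9, which depends mainly on interferon gamma, was near the limit of detection, with 0.695 FPKM (WT) against 0.140 FPKM (PU.1-/-). Its WT over PU.1-/- ratio of 4.98 rested on about 26 and 6 reads and had an interval of 2.004 to 14.8. Cxcl10 was 7.48 times as abundant as Cxcl9 in the WT wound and 180 times as abundant in the PU.1-/- wound. Exons of Cxcl10 overlap the gene Art3 on the opposite strand in GENCODE, and Art3 had 29.96 FPKM (WT) against 37.4 FPKM (PU.1-/-), a ratio of 1.25 (interval 1.12 to 1.39). The libraries were stranded, but the sources used here do not say whether strand was used in counting.

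The homeostatic ligands did not pass the 2-fold threshold. Their ratios are given as PU.1-/- over WT. Cxcl14 was the most abundant of them, with 178 FPKM (WT) against 197 FPKM (PU.1-/-), a ratio of 1.11 (interval 1.06 to 1.15). Cxcl12, made by fibroblasts and other stromal cells, had 52.1 and 54.8 FPKM, a ratio of 1.05 (interval 1.01 to 1.10). Cxcl13, a B cell attractant, had 5.01 FPKM (WT) against 9.31 FPKM (PU.1-/-). Its ratio of 1.86 was just under the threshold and its interval of 1.38 to 2.54 spanned it, from about 65 and 139 reads. Cxcl16 had 7.98 FPKM (WT) against 5.80 FPKM (PU.1-/-), a ratio of 0.727 (interval 0.607 to 0.870), and its exons overlap Zmynd15 on the opposite strand, which had 1.56 and 1.16 FPKM.

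In the order of levels, the WT wound ran Cxcl3, Cxcl5, Cxcl1, Cxcl2, Cxcl14, Cxcl12, Cxcl16, Cxcl10, Cxcl13 and Cxcl9. The neighbours Cxcl2 and Cxcl14 (180 and 178 FPKM) and the neighbours Cxcl10 and Cxcl13 (5.20 and 5.01 FPKM) lay close together, and no spread between animals was available to separate them. The PU.1-/- wound ran Cxcl5, Cxcl1, Cxcl14, Cxcl12, Cxcl2, Cxcl10, Cxcl3, Cxcl13, Cxcl16 and Cxcl9. Cxcl3 thus moved from the first place to the seventh. Cxcl10 moved from the eighth to the sixth, where it stood next to Cxcl3 (25.1 and 22.7 FPKM). In the PU.1-/- wound Cxcl1 and Cxcl14 (208 and 197 FPKM) and Cxcl12 and Cxcl2 (54.8 and 48.4 FPKM) also lay close together. The places of such neighbours were not resolved with 1 library per genotype.

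**Figure D3:**
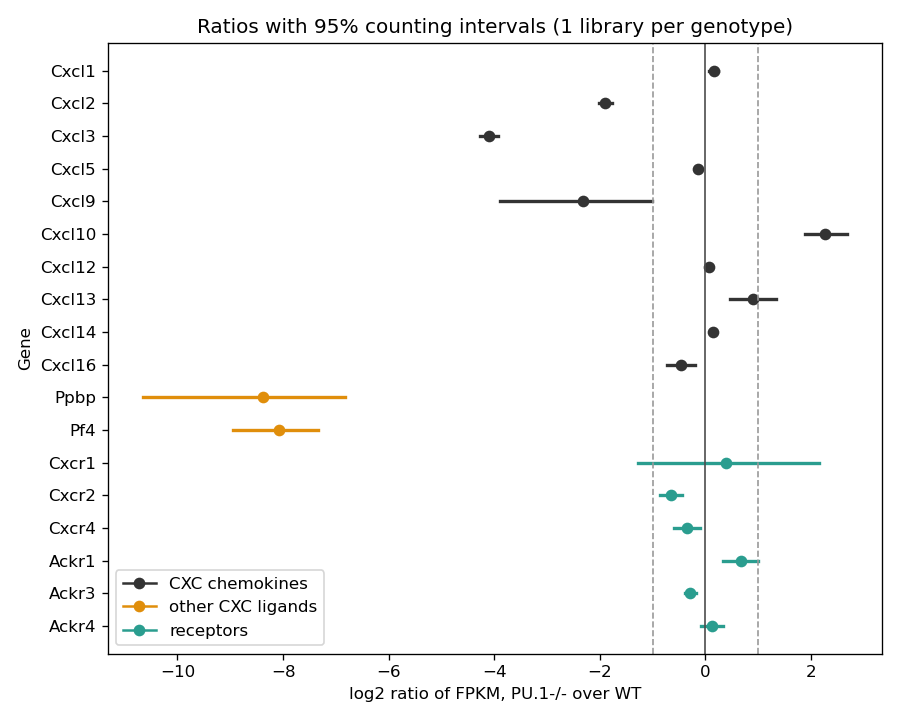
log2 ratio of FPKM, PU.1-/- over WT (x axis), with exact 95% counting intervals (bars), for the CXC chemokines, the other CXC ligands and the receptors with at least 10 estimated reads over both libraries. Dashed lines mark 2-fold. Ppbp and Pf4 lay furthest left (-8.37 and -8.08), followed by Cxcl3 (-4.10), Cxcl9 (-2.32) and Cxcl2 (-1.89), while Cxcl10 lay at 2.27. The point of each receptor shown lay between the dashed lines, but the interval of Cxcr1, from about 6 and 9 reads, crossed both.

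The other CXC ligands on the list were Pf4, Ppbp, Cxcl11, Cxcl15 and Cxcl17. Pf4 and Ppbp, the CXC chemokines of platelet granules, showed larger falls than any of the 10. Pf4 had 635 FPKM (WT) against 2.35 FPKM (PU.1-/-), which was 271 times lower (interval 161 to 496). Ppbp had 72.0 and 0.217 FPKM, which was 332 times lower (interval 113 to 1613) from about 870 and 3 reads. Of the 6 platelet and megakaryocyte markers, 3 reached 1 FPKM. Itga2b (3.19 and 3.83 FPKM) and Gp1bb (5.25 and 4.99 FPKM) were within 2-fold, and F13a1, also expressed in macrophages, was lower (73.9 FPKM and listed at 0). Gp9 rested on about 3 and 4 reads, and Treml1 and Gp6 were listed at 0 in both libraries, so that these could not be read either way. Cxcl11, annotated as a transcribed pseudogene in this strain, was listed at 0 in WT and at 0.137 FPKM in PU.1-/-. Cxcl15 had 0.0752 and 0.0982 FPKM, and Cxcl17 had 0.264 and 0.115 FPKM, values of 1 to 3 reads, so that Cxcl17, although past 2-fold, could not be read as a difference.

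The neutrophil-attracting genes lie in 1 stretch of 147 kilobases on chromosome 5, in the order Cxcl5, Ppbp, Pf4, Cxcl3, Cxcl15, Cxcl1 and Cxcl2, all on the plus strand of mm10. Cxcl5 runs from 90759298 to 90761625, Cxcl3 from 90786101 to 90788093, Cxcl1 from 90891245 to 90893121 and Cxcl2 from 90903899 to 90905938, each with 4 exons. Cxcl1 and Cxcl2 start 12.7 kilobases apart and had log2 ratios of 0.16 and -1.89. Along the stretch, Ppbp, Pf4 and Cxcl3 were lower and lay between Cxcl5 and Cxcl1, which were not. The flanking genes Rassf6 (2.23 and 2.69 FPKM) and Mthfd2l (5.42 and 5.76 FPKM) had log2 ratios of 0.27 and 0.09.
A further stretch of 42.0 kilobases on the same chromosome holds Cxcl9 (from 92321331 to 92328079), Cxcl10 (from 92346638 to 92348889) and Cxcl11, all on the minus strand. Cxcl9 and Cxcl10 are 18.6 kilobases apart and had log2 ratios of -2.32 and 2.27. Their neighbours Sdad1, Art3 and Nup54 had log2 ratios of 0.22, 0.32 and 0.22. Cxcl13 lies on chromosome 5 from 95956939 to 95961068, Cxcl12 on chromosome 6 from 117168535 to 117181368, Cxcl14 on chromosome 13 from 56288643 to 56296811 and Cxcl16 on chromosome 11 from 70454389 to 70459984.

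**Figure D4:**
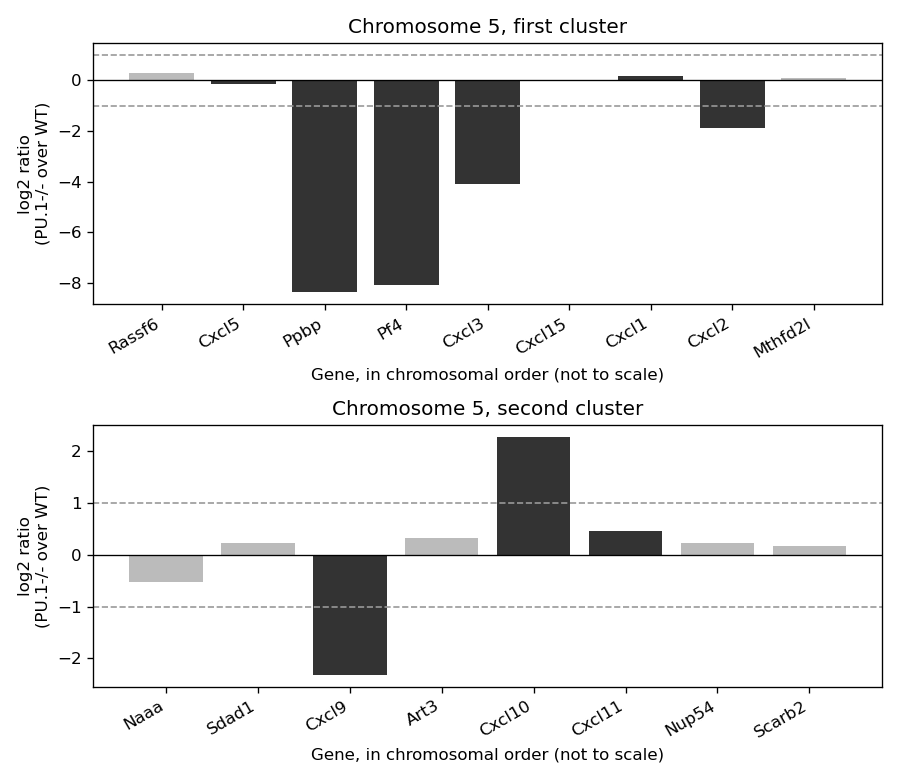
log2 ratio of FPKM, PU.1-/- over WT (y axis), of the genes of each CXC stretch of chromosome 5 in chromosomal order (x axis, not to scale). Black bars are CXC ligands and grey bars their neighbours. Dashed lines mark 2-fold, and values below 0.1 FPKM were raised to 0.1. In the first stretch Ppbp, Pf4, Cxcl3 and Cxcl2 passed 2-fold, and Cxcl9 (-2.32) and Cxcl10 (2.27) pointed in opposite directions in the second.

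None of the 9 chemokine receptors on the list passed the 2-fold threshold, and 5 of them reached 1 FPKM. Over all genes 4.34% were lower and 2.32% were higher, and a list this short cannot be set apart from these shares. Cxcr2, the receptor of the neutrophil-attracting ligands, had 11.2 FPKM (WT) against 7.17 FPKM (PU.1-/-), a PU.1-/- over WT ratio of 0.638 (interval 0.551 to 0.739). Cxcr1 had 0.474 and 0.619 FPKM, or about 6 and 9 reads. Cxcr4, a receptor of Cxcl12, had 13.6 and 10.6 FPKM, and Ackr3, the other Cxcl12 receptor, had 36.8 and 30.3 FPKM. Ackr1, which binds many chemokines on venules and red blood cells, had 9.45 and 15.0 FPKM, and Ackr4 had 11.2 and 12.2 FPKM. Cxcr3, the receptor of Cxcl9 and Cxcl10, was at 0.0516 FPKM in WT and listed at 0 in PU.1-/-. Cxcr5 (0.120 FPKM and listed at 0) and Cxcr6 (0.128 and 0.0746 FPKM) were also near 0. With the floor of 0.1 FPKM, Cxcr3, Cxcr5 and Cxcr6 could not show a 2-fold fall.

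The cytokines that can induce CXC chemokines were uneven. Of 13 on the list, 4 were lower and none was higher, with a median log2 ratio of -0.55, and 7 reached 1 FPKM. The shares over all genes were 4.34% lower and 2.32% higher. Il1b had 63.9 FPKM (WT) against 0.169 FPKM (PU.1-/-), which was 379 times lower (interval 129 to 1839) from about 1011 and 3 reads. Tnf had 6.40 and 1.31 FPKM, which was 4.90 times lower (interval 3.27 to 7.56). Il17a (0.526 FPKM) and Il17f (0.821 FPKM) rested on about 7 and 11 reads in WT and were listed at 0 in PU.1-/-. The floor of 0.1 FPKM entered their ratios. Il33, an alarmin of epithelium and stroma, had 101 and 53.8 FPKM, Il1a had 16.3 and 11.1 FPKM, and the epidermal cytokines Il36a and Il36g (listed as Il1f6 and Il1f9) had 25.4 and 22.9 FPKM and 87.6 and 55.2 FPKM. Ifng, Ifna4 and Ifnl3 were listed at 0 in both libraries, and Ifnb1 was listed at 0 in WT and at about 1 read in PU.1-/-.

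Of 20 genes of the NF-kB response, all at 1 FPKM or more, 1 was lower and none was higher, with a median log2 ratio of -0.02. Over all genes at that level the shares were 4.45% and 1.71%, so that this count was near the background. The lower one was Ccl7, a monocyte attractant, with 164 and 70.3 FPKM. Ccl2, its neighbour in function, had 444 and 269 FPKM, and Nfkbia, the inhibitor that NF-kB induces in feedback, had 198 and 195 FPKM. Csf3, the growth factor of neutrophils, had 81.7 and 67.7 FPKM, and Il6 had 70.3 and 50.4 FPKM.
Of 22 genes of the interferon response, 2 were lower and 1 was higher, with a median log2 ratio of 0.04. The shares over all genes were 4.34% lower and 2.32% higher. Of the 22, 19 reached 1 FPKM, a level at which the shares were 4.45% and 1.71%. Counts of 2 and 1 are too small to set apart from these shares. Isg15, a ubiquitin-like interferon product, had 28.9 and 29.7 FPKM, Irf9 had 15.2 and 15.6 FPKM, and Irf7 had 22.5 and 11.6 FPKM. The higher gene was Ifit3 (3.02 and 7.02 FPKM), with a ratio of 2.32 (interval 1.73 to 3.14), and the lower ones were Oas1a (4.12 and 1.42 FPKM) and Cd274 (3.61 and 1.28 FPKM). The ratio of Cxcl10 was larger than that of any gene on this list.

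**Figure D5:**
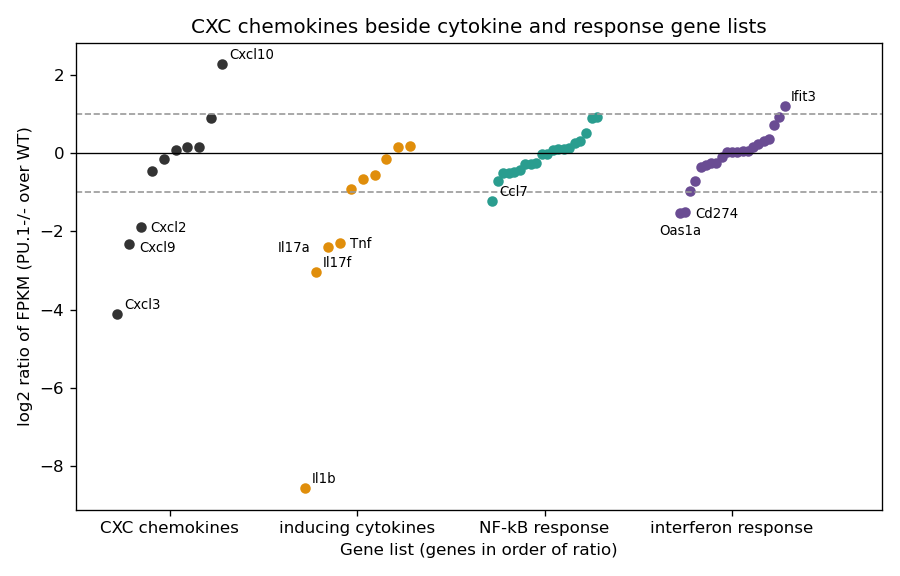
log2 ratio of FPKM, PU.1-/- over WT (y axis), of each gene of 4 lists (x axis, ordered by ratio within a list, genes that reached 0.1 FPKM), with genes past 2-fold named. Dashed lines mark 2-fold. Il1b lay at -8.56 among the inducing cytokines, while the NF-kB and interferon response genes clustered around 0 with medians of -0.02 and 0.04.

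Among 16 genes that cleave, bind or destabilise chemokines or their mRNAs, 5 were lower and none was higher, with a median log2 ratio of -0.12. The shares over all genes were 4.34% lower and 2.32% higher. The lower ones were Mmp8 (23.1 FPKM and listed at 0), Prtn3, Elane, Ctsg and Mmp12, proteases of neutrophils and macrophages. Mmp12, Elane and Ctsg rested on about 16, 11 and 5 reads in WT, and the interval of the PU.1-/- over WT ratio of Ctsg, 0.00368 to 1.56, included no change. Adam10 (39.9 and 39.0 FPKM) and Adam17 (20.3 and 19.0 FPKM), which release Cxcl16, were nearly equal. Zfp36, which binds AUUUA elements and promotes decay of the mRNA, had 73.2 and 84.1 FPKM. The proteoglycan Sdc1 had 260 and 235 FPKM, the chemokine-binding protein Tnfaip6 had 126 and 155 FPKM, and Mmp2 had 101 and 170 FPKM.

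Most markers of macrophages, mast cells, neutrophils and T and NK cells were lower in the PU.1-/- library. Those of fibroblasts, keratinocytes and endothelium stayed within 2-fold. The shares over all genes were 4.34% lower and 2.32% higher. Macrophage markers were lower in 12 of 12 genes, with a summed level of 1023 FPKM (WT) against 12.6 FPKM (PU.1-/-), and 6 of them, among them C1qa, C1qb and Tyrobp, were listed at 0 in PU.1-/-. Mast cell markers were lower in 7 of 8 genes (697 and 7.30 FPKM summed). Neutrophil markers were lower in 9 of 13 (13749 and 4474 FPKM summed), with Ngp, Ltf, Mmp8, Csf3r and Retnlg listed at 0. S100a8 (6600 and 2129 FPKM) and S100a9 (5311 and 1516 FPKM), also made by keratinocytes, were lower. Together with Lcn2 (1125 and 779 FPKM) they kept the sum high. Camp was lower but still present (77.6 and 23.9 FPKM). Lcn2, Mmp9 (34.5 and 19.3 FPKM), Cxcr2 (11.2 and 7.17 FPKM) and Mpo, at about 6 and 3 reads, were not past 2-fold. T and NK cell markers were lower in 7 of 9 (8.43 and 0.137 FPKM summed), and B cell markers in 1 of 5 (0.583 and 0.317 FPKM summed). Of the T and NK cell markers 4 reached 1 FPKM, and the intervals of 2 lower ones, Cd247 and Gzmb, included no change. No B cell marker reached 1 FPKM, and the lower one, Cd79b, rested on about 4 and 1 reads. The B cell markers thus could not be read either way. None of the 10 fibroblast, 10 keratinocyte, 8 endothelial and 10 general genes passed the threshold, with median log2 ratios of 0.22, 0.17, 0.12 and -0.05. Skeletal muscle markers were higher in 2 of 8, with a median of 0.75. The part of these cell types in the values of Cxcl2, Cxcl3, Cxcl9 and Cxcl10 was not tested.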

How the data were processed

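Values were taken from bulk mRNA sequencing of 1 WT and 1 PU.1-/- wound library. The authors prepared stranded libraries and deposited FPKM values on mm10, calculated with Cuffnorm per the methods. The submitters' processing notes name TopHat2 2.1.1, Bowtie2 2.2.8, SAMtools 0.1.18 and Cuffdiff 2.2.1. The gene annotation is not given in the sources used here.

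Ratios were taken from the deposited FPKM values with a floor of 0.1 FPKM. Depth was estimated as the fragment number that brought values of up to 4.5 reads nearest to whole reads, over genes with 1 RefSeq transcript in GENCODE M21 longer than 800 bases, less 200 bases for the fragment length. At that depth, 79.9% of 637 values in WT and 81.3% of 603 in PU.1-/- lay within 0.1 of a whole read. Reads used the longest such transcript of a gene, so those of Cxcl12, with 3 transcripts, may be too high and its interval too narrow. Among genes below 2 FPKM in WT, 457 had a WT over PU.1-/- ratio within a bin of width 0.001 centred on 1.1485, taken as the relative worth of 1 read. Positions are those of RefSeq on GRCm38.p6. The functions were tested on simulated data.

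The members and lists were chosen with earlier results of these data known. Named were the chemokines, other CXC ligands, receptors and Spi1, the 3 most abundant genes of each cytokine, response and processing list, its genes past 2-fold at 10 FPKM or more, and neighbours on the chromosome. Other genes were named after their values were seen. Of the marker lists only examples were named, and Ly6g was not found under its symbol. Mmp8, Mmp9, Elane and Cxcr2 are each on 2 lists. Tools were matplotlib 3.10.9, scipy 1.17.1, pandas 2.3.3 and numpy 2.4.6 under Python 3.11.15.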

Additional observations from a re-analysis of the deposited data

How the results depend on the processing

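The calls for Cxcl2, Cxcl3 and Cxcl10 held under each of 11 alternatives of floor, pseudocount, scaling, filter and fold threshold, with log2 ratios from -1.89 to -1.83 for Cxcl2, from -4.10 to -4.04 for Cxcl3 and from 2.07 to 2.33 for Cxcl10. The call for Cxcl9 was lost with a floor of 1 FPKM (log2 ratio 0) and with a pseudocount of 1 FPKM (-0.57), and the gene left the set at a minimum of 1 FPKM, so that 2 lower chemokines remained. A fold threshold of 1.5 gave 2 higher chemokines, Cxcl10 and Cxcl13. The median over the 10 chemokines, -0.04, turned to 0.0362 with a floor of 1 FPKM, 0.0104 with equal FPKM sums, 0.0194 with the median of the general genes set to 1, 0.0246 with equal sums outside the 100 highest genes and 0.0723 at a minimum of 1 FPKM, values all close to 0. The scalings moved all ratios by at most 0.06 on the log2 scale, enough to take Cxcl5 from -0.14 to -0.08.
Counts over all genes, 1057 lower and 565 higher, depended on the low values. They were 1778 and 1220 with a floor of 0.01 FPKM, 463 and 164 with a floor of 1 FPKM, 461 and 89 with a pseudocount of 1 FPKM, and 589 and 226 at a minimum of 1 FPKM. A fold threshold of 1.5 gave 1867 and 1410, and a threshold of 3 gave 681 and 150. Leaving out a library was not possible with 1 per genotype. No paired analysis was possible because each genotype had a single library.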
